A study of Mus musculus with 5 samples.

Results

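The mRNAs described here encode 8 families of chromatin modifiers and remodelers, and the rule that selects them uses only gene symbols: it takes every protein-coding gene whose symbol begins with Kmt, Setd, Kdm, Kat, Hdac, Chd or Arid followed by a digit, or with Smarc. This rule found 86 genes among 55573 in the count table, of which 21900 are protein-coding. There were 8 Kmt, 8 Setd, 18 Kdm, 8 Kat, 11 Hdac, 10 Chd, 13 Smarc and 10 Arid genes. The study sequenced RNA of N2A, also called Neuro-2A, a line grown from a mouse neuroblastoma, to find which mRNAs change when the RNA helicase UPF1 is depleted. Cells were transfected with 60 pmol of a commercial non-targeting siRNA (Silencer Negative Control #1; siCtl, n = 2, replicates 1 and 3) or of a single Upf1 siRNA (siUpf1, n = 3, replicates 1, 2 and 3). Both groups received the same transfection reagent, and no other allele or agent was given. Each group therefore stands for 1 siRNA in 1 cell line, and the labels do not say whether the libraries come from separate cultures, so that p-values measure the spread between these samples.

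Chromatin is regulated by enzymes that add or remove marks on histone tails and by ATP-driven machines that slide or evict nucleosomes. KMT and several SETD proteins methylate lysines, KDM proteins remove these methyl groups, KAT proteins add acetyl groups and HDAC proteins take them off. CHD and SMARC ATPases, with SMARC and ARID subunits around the BAF and PBAF engines, remodel nucleosomes, and many of these genes are dosage-sensitive in neural development. UPF1 drives nonsense-mediated mRNA decay (NMD), a pathway that degrades mRNAs whose translation ends at a premature stop codon and also some mRNAs with long 3′ untranslated regions (3′ UTRs).

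Between 20402205 and 27717594 reads were assigned to genes per library. Upf1 itself had 5217 and 5243 normalised counts in siCtl and 2403, 2496 and 2449 in siUpf1, so that 46.8% of its mRNA remained (log2 fold change -1.10, SE 0.051, adjusted p = 7.09e-101). Here and below, log2 fold changes are siUpf1 over siCtl, and a gene is called when its DESeq2 adjusted p over all genes tested is under 0.05. Of 12 neural or neuroblastoma markers, 10 had a mean of at least 10 counts, while Nefm and Nefl were near 0. Their summed level was between 40235 and 40488 in siCtl and between 45654 and 48408 in siUpf1. They did not move together: Map2 and Gap43, for example, were called higher, Stmn2 was called lower (6308 and 6254 against 5776, 5711 and 5361), and Tubb3, Chga and Nes were not called. The 5 fibroblast markers summed to between 288 and 305 against between 215 and 254 (Col3a1 and Lum were at 0 in every library), and the 6 glial markers to between 515 and 535 against between 541 and 581 (Mog at 0). The 6 blood and macrophage markers, which summed to between 6766 and 7080 against between 5249 and 5509, consisted almost wholly of Hbb-bs (6724 and 7041 against 5474, 5271 and 5216), with Ptprc, Cd3e, Aif1 and Csf1r near 0. The part of these marker differences in the results below was not tested. In such bulk RNA, fewer cells of a type and less RNA per cell cannot be told apart.

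Chromatin modifier and remodeler mRNAs moved in both directions and by small amounts after Upf1 knockdown. Of the 82 members that could be tested, 22 were called higher and 24 lower, or 56.1%. Over all 15191 genes tested, 44.9% were called (22.0% higher, 22.9% lower), and over the 12730 protein-coding genes 51.2% (24.5% higher, 26.6% lower). The members are abundant mRNAs, and among the 75 with a mean of at least 500 counts 54.7% were called, beside 62.6% of the other protein-coding genes above that level. The median log2 fold change was -0.01 for the members and -0.02 for all protein-coding genes, and the median size of the change was 0.20 and 0.27. With total-count scaling the members' median was 0.01. Only 8 members, all among the Kdm, Hdac, Smarc and Arid genes, were called with a log2 fold change of at least 0.5 in size, where 18.5% of all genes and 20.1% of protein-coding genes were. No member called by DESeq2 reached 1, a size that 4.85% of all genes and 4.78% of protein-coding genes passed. The siCtl and siUpf1 libraries did not overlap for 57 of the 82, where this held for 69.4% of all genes and 73.9% of protein-coding genes. Without siCtl replicate 3 the members called fell to 13 higher and 16 lower. Across 12 alternatives of scaling, filtering, test and libraries, 23 members were called in every one, 10 of them higher and 13 lower, and no called member changed direction.

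**Figure D1:**
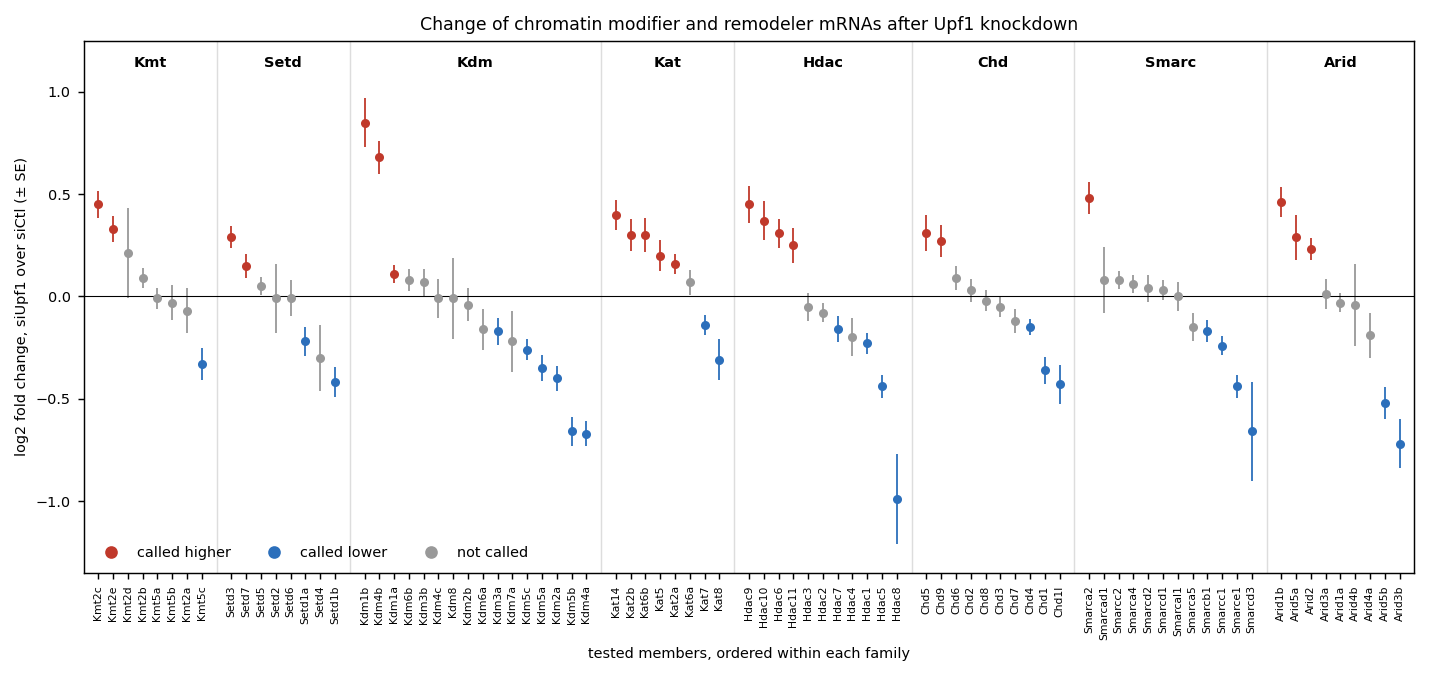
Log2 fold change of siUpf1 over siCtl (vertical axis, bars are the SE from DESeq2) for the 82 tested members, ordered within each family; red and blue mark members called higher and lower. Kdm1b at 0.85 and Hdac8 at -0.99 are the extremes, and every family has members on both sides of 0.

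**Figure D2:**
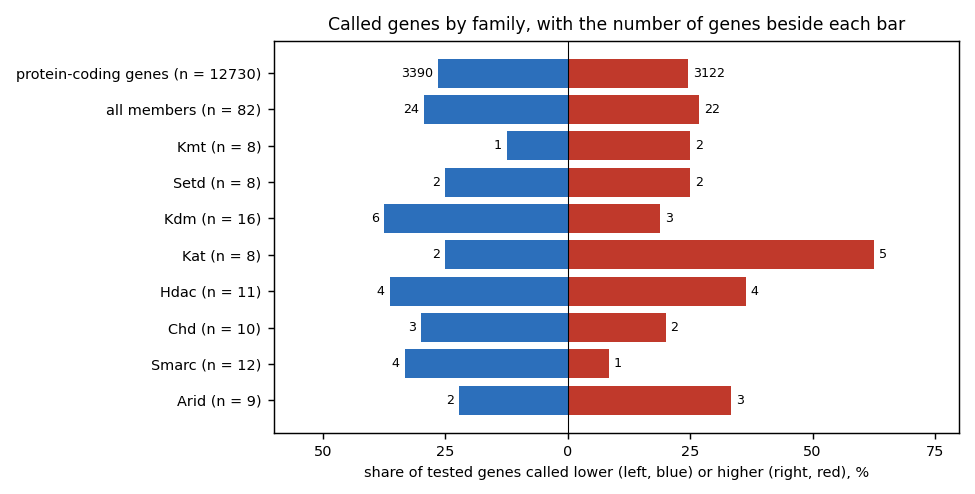
Share of tested genes called lower (blue, left) and higher (red, right) in each family, with all members and all protein-coding genes on top; numbers beside the bars are genes. Kat genes lean to the right with 5 higher and 2 lower, and Smarc genes to the left with 1 higher and 4 lower.

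The 4 members that were not tested had too few reads. Kdm4d averaged 6.06 normalised counts over the 5 libraries, Kdm5d 0.796, Smarca1 8.03 and Arid3c 7.45. Smarca1 encodes the ISWI ATPase SNF2L and Kdm5d is the Y-linked KDM5 paralog. The other ISWI ATPase gene, Smarca5, was abundant.

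An siRNA can lower mRNAs other than its target when bases 2 to 8 of either strand, the seed, pair with a 3′ UTR, so the letters that bear on the members are shown here. The sequence given for the Upf1 siRNA is found in the Upf1 mRNA and was taken as the sense strand, and the other strand was derived as the reverse complement (both in RNA letters, seed in capitals).
Upf1 siRNA, sense strand: uCAAGGUUccugauaauua
Upf1 siRNA, antisense strand: uAAUUAUCaggaaccuuga
The complements of these seeds are AACCTTG (sense) and GATAATT (antisense), which do not overlap each other. They were searched on the mRNA strand of 1 representative 3′ UTR per gene of at least 50 nt (GENCODE M21, build GRCm38). AACCTTG was found in 10 of the 82 members and in 10.0% of 12394 protein-coding genes tested, and GATAATT in 5 members and 7.82% of genes. Sites in called members follow, with 10 bases on each side of the 7-mer in capitals.
Arid3b, sense-strand site (chr9:57791786-57791812, minus strand): ctgatcctcaAACCTTGgcttcctgcc
Arid5b, sense-strand site (chr10:68092804-68092830, minus strand): ccagctatgtAACCTTGatgctctgta
Setd1b, sense-strand site (chr5:123168197-123168223, plus strand): cgcatgcattAACCTTGacttgagttt
Kdm5c, sense-strand site (chrX:152274026-152274052, plus strand): acttctctctAACCTTGgaaaagatat
Kdm5c, antisense-strand site (chrX:152274096-152274122, plus strand): ggccccctttGATAATTtgcacgacag
Kdm5a, antisense-strand site (chr6:120439611-120439637, plus strand): ccttagttagGATAATTggacaggagt
Kdm2a, antisense-strand site (chr19:4317655-4317681, minus strand): ataggagattGATAATTgatagcacag
Kdm4b, sense-strand site (chr17:56402611-56402637, plus strand): aaaaggacctAACCTTGggcctggagg
Kmt2e, antisense-strand site (chr5:23503568-23503594, plus strand): ttaatgtataGATAATTtttagtgtct
Of the 14 members with either 7-mer, 6 were called lower (Arid3b, Arid5b, Setd1b, Kdm5c, Kdm5a and Kdm2a) and 2 higher (Kdm4b and Kmt2e), with a median log2 fold change of -0.14. The 68 members without them had 18 lower and 20 higher and a median of -0.01. Among all 1996 protein-coding genes with either 7-mer, 32.8% were called lower and 25.1% higher (median -0.05). Among the 10398 without them, 25.6% were lower and 24.7% higher (median -0.02). For AACCTTG alone, 462 of 1242 genes (37.2%) were lower and 271 (21.8%) higher (median -0.11). GATAATT is the 7-mer of Kdm5a and Kdm2a and 1 of the pair in Kdm5c. Of 969 genes with it, 265 (27.3%) were lower and 273 (28.2%) higher (median 0.00). A match is a string of letters in a UTR and not a shown site of action, and its part in these changes was not tested. Members with either 7-mer also had longer 3′ UTRs, with a median of 2826 nt against 1010 nt. The same held over protein-coding genes, with 2366 nt against 864 nt for either 7-mer and 2724 nt against 935 nt for GATAATT. The shares above are not adjusted for this length.

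A pair of other 7-mers, GCAGTAC and CAGTACA, which share 6 letters and were named in earlier results of these data, were also looked up. GCAGTAC was found in 5.24% of 3′ UTRs, and 319 of those 650 mRNAs (49.1%) were called higher, against 23.4% of those without it. It was present in 3 members, none of which was called higher: Kdm5b and Chd1, which fell, and Chd2, at 0.03.
Kdm5b, GCAGTAC (chr1:134633683-134633709, plus strand): cctaccctgtGCAGTACcaacactgca
Chd1, GCAGTAC (chr17:15770524-15770550, plus strand): ctgcgatactGCAGTACcttttttttc
CAGTACA, in 8.79% of 3′ UTRs, was in 4 members, of which Arid1b and Arid5a were called higher, Chd1 lower, and Smarca5 not called. Of all protein-coding genes with it, 40.7% were called higher and 17.4% lower, against 23.2% and 27.6% without it. Genes with GCAGTAC or CAGTACA had longer 3′ UTRs, with a median of 2474 nt against 905 nt. Since both 7-mers were taken from these same data, the shares are no test of them. The part of these 7-mers, or of what may bind them, in the changes was not tested.

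Among the lysine methyltransferases named Kmt, the KMT2 enzymes of histone H3 lysine 4 (H3K4) moved upward where they moved. Kmt2c, the catalytic subunit of a complex that marks enhancers, had 3950 and 3928 normalised counts in siCtl and 5466, 4831 and 5811 in siUpf1. All 3 siUpf1 libraries lay above both siCtl libraries, and the gene rose by a log2 fold change of 0.45 (SE 0.065, adjusted p = 4.93e-11). Kmt2e, a divergent family member, rose from 2752 and 2718 to 3662, 3203 and 3433 (log2 fold change 0.33, SE 0.062, adjusted p = 5.51e-07). Kmt2d, the closest paralog of Kmt2c, had 15529 and 13959 in siCtl against 14702, 15486 and 20815. Its siUpf1 replicate 3 stood far above the others, and with an SE of 0.22 the gene was not called (0.21, adjusted p = 0.479). Kmt2a and Kmt2b, the founding MLL-type enzymes, were not called either (-0.07 and 0.09). Of the KMT5 enzymes, which methylate histone H4 lysine 20, Kmt5c fell from 1529 and 1685 to 1268, 1382 and 1199 (-0.33, SE 0.079, adjusted p = 0.000137), while Kmt5a and Kmt5b had -0.01 and -0.03. Without siCtl replicate 3 its adjusted p was 0.0566. Over the 8 genes, 2 rose, 1 fell and 5 were not called, beside 51.2% of protein-coding genes called in either direction. The median of 0.04 turned to -0.03 with the trend over transcript length and GC removed.

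The SETD1 pair, also H3K4 methyltransferases, both fell. Setd1b (chr5:123142193-123168629) had 2411 and 2392 normalised counts in siCtl and 1699, 1688 and 1976 in siUpf1. All siUpf1 libraries were lower, replicate 3 less so, and the log2 fold change was -0.42 (SE 0.073, adjusted p = 4.74e-08). Setd1a declined from 1815 and 1956 to 1581, 1581 and 1696 (-0.22, SE 0.069, adjusted p = 0.00442). Setd3, which methylates a histidine of actin, rose from 2590 and 2520 to 3079, 3154 and 3119 (0.29, SE 0.054, adjusted p = 6.71e-07). Its siUpf1 libraries lay close together and above both siCtl libraries. Setd7, a monomethyltransferase of H3K4 and of non-histone proteins, was at 3077 and 2809 in siCtl and at 3224, 3187 and 3376 in siUpf1 (0.15, SE 0.059, adjusted p = 0.0258). Setd2, which trimethylates H3K36, varied within both groups (3876 and 4698 against 4865, 3777 and 4100) and had -0.01. Setd4, Setd5 and Setd6 were not called (-0.30, 0.05 and -0.01). Without siCtl replicate 3 neither Setd1a (adjusted p = 0.19) nor Setd7 (0.453) was called, and Setd7 was also lost without siUpf1 replicate 3 (0.147). With the length and GC trend removed, Setd7 was at 0.04 (adjusted p = 0.594). The family's median of -0.01 turned to 0.01 with total-count scaling.

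The lysine demethylases held the widest range, with 3 of 16 tested genes higher and 6 lower. Of all protein-coding genes tested, 24.5% were called higher and 26.6% lower. The flavin-dependent enzymes of the KDM1 group both rose. Kdm1b (chr13:47043499-47085279), an H3K4 demethylase known from oocytes, had 321 and 304 normalised counts in siCtl and 553, 556 and 581 in siUpf1. This was 181% of the siCtl level, the largest rise of the 82 members (log2 fold change 0.85, SE 0.12, adjusted p = 1.91e-12). Kdm1a, or LSD1, the demethylase of the CoREST complex, had 6821 and 6774 against 7488, 7323 and 7164, a change of only 0.11 (SE 0.044, adjusted p = 0.0314). Its call was lost without siCtl replicate 1 (0.187), siCtl replicate 3 (0.229), siUpf1 replicate 1 (0.11) or siUpf1 replicate 2 (0.0686).

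The KDM4 enzymes, which act on H3K9 and H3K36, moved in opposite directions. Kdm4a (chr4:118136957-118180043) fell from 2620 and 2527 normalised counts to 1617, 1633 and 1597, or 62.8% of siCtl (log2 fold change -0.67, SE 0.061, adjusted p = 9.85e-27). Kdm4b (chr17:56326062-56402870) rose from 899 and 864 to 1329, 1391 and 1515, or 160% (0.68, SE 0.082, adjusted p = 1.92e-15). In neither gene did the groups come near each other, and both kept their call and direction in all 12 alternatives. Kdm4c, at 741 and 759 against 815, 700 and 723, was not called (-0.01).

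The KDM5 enzymes, which erase H3K4 methylation, fell in each of the 3 paralogs tested. Kdm5b (chr1:134560171-134635285) had 2539 and 2210 normalised counts in siCtl and 1507, 1475 and 1535 in siUpf1, 63.5% of the siCtl level. Its siUpf1 libraries agree closely and all lie below both siCtl libraries (log2 fold change -0.66, SE 0.071, adjusted p = 7.58e-19). Kdm5a went from 2565 and 2472 to 1986, 1891 and 2052 (-0.35, SE 0.062, adjusted p = 1.22e-07). Kdm5c, an X-linked gene mutated in intellectual disability, went from 6906 and 6570 to 5355, 5550 and 5935 (-0.26, SE 0.053, adjusted p = 3.02e-06). All 3 were called in each alternative. Of the 7-mers printed above, Kdm5c carries both the sense-seed and the antisense-seed one, Kdm5a the antisense-seed one and Kdm5b GCAGTAC.

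Of the remaining demethylases, Kdm2a, an H3K36 demethylase that binds CpG islands, fell from 2850 and 2815 normalised counts to 2126, 2043 and 2253 (log2 fold change -0.40, SE 0.061, adjusted p = 3.49e-10). Its paralog Kdm2b was not called (-0.04). Kdm3a, an H3K9 demethylase, was at 3028 and 2890 against 2769, 2411 and 2715 (-0.17, SE 0.065, adjusted p = 0.0264). It was not called without siCtl replicate 1 (0.265), siCtl replicate 3 (0.0782) or siUpf1 replicate 2 (0.167). Kdm3b had 0.07. The H3K27 demethylases Kdm6a and Kdm6b had -0.16 and 0.08, Kdm7a -0.22 and Kdm8 -0.01, and DESeq2 called none of these 4. edgeR called Kdm7a lower (adjusted p = 0.0358). For Kdm7a the first siUpf1 library, at 1921, lay between the siCtl values of 2002 and 1867, while the others were at 1499 and 1553. The family's median was -0.10.

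Lysine acetyltransferases were called in 7 of 8 cases, 5 higher and 2 lower, beside 51.2% of protein-coding genes called in either direction. The GNAT-type enzymes all rose. Kat14, a subunit of the ATAC complex, had 1144 and 1140 normalised counts in siCtl and 1439, 1561 and 1528 in siUpf1 (log2 fold change 0.40, SE 0.073, adjusted p = 2.58e-07). Kat2b, or PCAF, had 1043 and 978 against 1266, 1249 and 1217 (0.30, SE 0.077, adjusted p = 0.000364). Kat2a, or GCN5, the catalytic subunit of SAGA, had 4903 and 4914 against 5366, 5712 and 5410 (0.16, SE 0.048, adjusted p = 0.0024). In all 3 genes the groups did not overlap, which held for 73.9% of protein-coding genes, and siUpf1 stood at 132%, 123% and 112% of siCtl. With replicate number added to the model, Kat2a and Kat2b were not called.

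The MYST-type acetyltransferases were divided. Kat6b, mutated in disorders of brain and skeletal development, had 1037 and 929 normalised counts against 1257, 1147 and 1216 (log2 fold change 0.30, SE 0.083, adjusted p = 0.00104). Kat5, or TIP60, had 1060 and 1081 against 1246, 1187 and 1256 (0.20, SE 0.076, adjusted p = 0.0201). Kat8, or MOF, the main acetyltransferase of histone H4 lysine 16, fell from 617 and 626 to 502, 492 and 511 (-0.31, SE 0.1, adjusted p = 0.00719). Kat7, or HBO1, fell from 4351 and 4261 to 3829, 3933 and 3957 (-0.14, SE 0.049, adjusted p = 0.011). Kat6a was not called (0.07). Several of these calls rest on having both siCtl libraries. Without siCtl replicate 1 the calls of Kat2a (adjusted p = 0.0678), Kat5 (0.191), Kat7 (0.158) and Kat8 (0.0755) were lost, which leaves 3 higher and 0 lower. Without siCtl replicate 3, Kat2a (0.0594), Kat2b (0.0599), Kat5 (0.126), Kat6b (0.128), Kat7 (0.075) and Kat8 (0.111) were lost, which leaves only Kat14. Kat7 was also lost without siUpf1 replicate 1 (0.0525), and Kat5 without siUpf1 replicate 1 (0.0795) or 3 (0.107).

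Of the 11 histone deacetylases, 4 were called higher and 4 lower, beside 51.2% of protein-coding genes called in either direction. The siCtl and siUpf1 libraries did not overlap for any of the 11, which held for 73.9% of protein-coding genes. The class I enzymes lay on the lower side. Hdac8 (chrX:102284639-102505359), a class I deacetylase that also acts on cohesin, had 168 and 170 normalised counts in siCtl and 87.2, 94.1 and 74.9 in siUpf1. Its mRNA was at 50.4% of siCtl, the largest decrease of the 82 members (log2 fold change -0.99, SE 0.22, adjusted p = 2.3e-05). Hdac1 fell from 3467 and 3435 to 2965, 2937 and 2924 (-0.23, SE 0.052, adjusted p = 3.88e-05). Hdac2 and Hdac3, the other class I genes, had -0.08 and -0.05 and were not called.

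The class IIa deacetylases, which shuttle between nucleus and cytoplasm and repress MEF2 targets, were divided. Hdac5 fell from 3510 and 3439 normalised counts to 2468, 2613 and 2605 (log2 fold change -0.44, SE 0.055, adjusted p = 2.16e-14). Hdac9 (chr12:34047580-34917095) rose from 744 and 695 to 1002, 926 and 1022 (0.45, SE 0.089, adjusted p = 1.92e-06). Hdac7 was at 1735 and 1789 against 1584, 1548 and 1594 (-0.16, SE 0.065, adjusted p = 0.0326), and Hdac4 was not called by DESeq2 (-0.20, adjusted p = 0.0631) but was by edgeR (0.0374). The genes of classes IIb and IV all rose. Hdac10, a polyamine deacetylase, had 557 and 595 against 733, 748 and 759 (0.37, SE 0.096, adjusted p = 0.000355). Hdac6, a cytoplasmic tubulin deacetylase, had 1265 and 1345 against 1577, 1684 and 1610 (0.31, SE 0.071, adjusted p = 4.44e-05). Hdac11, the class IV enzyme, had 1214 and 1028 against 1373, 1391 and 1248 (0.25, SE 0.086, adjusted p = 0.0089). With replicate number added to the model, Hdac6, Hdac10 and Hdac11 were not called. Hdac11 was also lost without siCtl replicate 3 (0.364), siUpf1 replicate 1 (0.0529) or siUpf1 replicate 2 (0.0578). Hdac7 was lost without any 1 of the 5 libraries, with adjusted p = 0.114 and 0.263 without siCtl replicates 1 and 3 and 0.0753, 0.106 and 0.0888 without siUpf1 replicates 1, 2 and 3.

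CHD remodelers are ATPases with paired chromodomains, and 2 of the 10 rose while 3 fell (protein-coding genes: 24.5% higher, 26.6% lower). Chd1, which travels with elongating RNA polymerase, had 3957 and 4367 normalised counts in siCtl and 3519, 3039 and 3188 in siUpf1 (log2 fold change -0.36, SE 0.066, adjusted p = 3.83e-07). Chd1l, a PARP-activated remodeler without chromodomains, had 822 and 876 against 601, 641 and 651 (-0.43, SE 0.094, adjusted p = 2.24e-05). Both lay lower in each siUpf1 library. Among the ATPases of the NuRD complex, Chd4 fell from 15730 and 15250 to 13634, 14168 and 14214 (-0.15, SE 0.04, adjusted p = 0.000967). Chd5, the neuronal paralog and a tumour suppressor in neuroblastoma, rose from 1006 and 861 to 1103, 1170 and 1210 (0.31, SE 0.088, adjusted p = 0.00114). Chd3 was not called (-0.05). Chd9 rose from 1893 and 1930 to 2526, 2045 and 2344 (0.27, SE 0.078, adjusted p = 0.00149), with its siUpf1 libraries widely spread. Chd2, Chd6, Chd7 and Chd8, of which Chd7 and Chd8 are known for CHARGE syndrome and autism, had 0.03, 0.09, -0.12 and -0.02 and were not called. Without siCtl replicate 1 the calls of Chd4 (adjusted p = 0.079) and Chd9 (0.0557) were lost, and without siCtl replicate 3 that of Chd5 (0.168). With the length and GC trend removed, neither Chd5 (0.0573) nor Chd9 (0.166) was called and 6 Chd genes were lower.

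The Smarc genes encode the BAF ATPases, their core subunits and relatives of these ATPases. Smarca2, or BRM, rose from 986 and 974 normalised counts to 1437, 1369 and 1289 (log2 fold change 0.48, SE 0.079, adjusted p = 9.02e-09). It has 6 transcripts annotated as NMD substrates, the most of any member. Smarca4, or BRG1, the alternative ATPase, was at 8321 and 8445 against 8457, 9019 and 8804 and was not called (0.06, adjusted p = 0.254). Of the 7 non-ATPase subunits 4 fell and 0 rose (DESeq2, also at an unadjusted p under 0.05 and by edgeR). Among all protein-coding genes DESeq2 called 26.6% lower and 24.5% higher. Smarce1, a DNA-binding core subunit, fell from 3296 and 3369 to 2395, 2575 and 2394 (-0.44, SE 0.057, adjusted p = 1.34e-13). Smarcc1, a scaffold subunit, fell from 7524 and 7549 to 6474, 6130 and 6589 (-0.24, SE 0.046, adjusted p = 2.01e-06). Its paralog Smarcc2 had 0.08 and was not called. Smarcb1, a tumour suppressor that contacts the nucleosome, went from 4308 and 4581 to 3893, 4142 and 3812 (-0.17, SE 0.055, adjusted p = 0.00471). Smarcd3, which is low in these cells, had 124 in both siCtl libraries and 65.8, 90.4 and 79.3 in siUpf1 (-0.66, SE 0.24, adjusted p = 0.0158). Smarcd1 and Smarcd2 had 0.03 and 0.04. The ISWI ATPase Smarca5 (-0.15), Smarcad1 (0.08) and Smarcal1 (0.00) were not called. Smarcad1 had 2698 in siUpf1 replicate 1 and 2129 and 2141 in the others, so its SE was 0.16. Smarcb1 was lost without siCtl replicate 3 (0.188) or siUpf1 replicate 3 (0.0569) and with the length and GC trend removed (-0.09, adjusted p = 0.0821), and Smarcd3 without siCtl replicate 1 (0.135), siCtl replicate 3 (0.144), siUpf1 replicate 1 (0.111) or siUpf1 replicate 3 (0.0658). The family's median of 0.02 turned to -0.02 with the length and GC trend removed.

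ARID proteins share a DNA-binding domain, and 3 of the 9 tested rose while 2 fell (protein-coding genes: 24.5% higher, 26.6% lower). Arid1b, the BAF subunit most often mutated in Coffin-Siris syndrome, had 1909 and 1813 normalised counts in siCtl and 2408, 2462 and 2818 in siUpf1 (log2 fold change 0.46, SE 0.073, adjusted p = 1.56e-09). Arid2, the ARID subunit of PBAF, rose from 4806 and 4591 to 5517, 5214 and 5798 (0.23, SE 0.054, adjusted p = 7.6e-05). Arid1a, the paralog that excludes Arid1b from a complex, was at 13329 and 13015 against 12497, 12598 and 13502 and was not called (-0.03). Arid3b (chr9:57790353-57836793), a factor described in neuroblastoma, fell from 531 and 609 to 345, 355 and 340, or 60.7% of siCtl (-0.72, SE 0.12, adjusted p = 8.66e-09). Arid5b fell from 1802 and 1609 to 1150, 1165 and 1259 (-0.52, SE 0.077, adjusted p = 2.24e-10). Both carry the AACCTTG 7-mer printed above. Arid5a, an RNA-binding member that stabilises inflammatory mRNAs, was at 414 and 412 against 493, 516 and 506 (0.29, SE 0.11, adjusted p = 0.0243). It was not called without any 1 of the libraries, with adjusted p = 0.153 and 0.17 without siCtl replicates 1 and 3 and 0.0581, 0.0898 and 0.0946 without siUpf1 replicates 1, 2 and 3, nor with the length and GC trend removed (0.0567). Arid3a, Arid4a and Arid4b had 0.01, -0.19 and -0.04 and were not called. Arid4b spread from 773 to 1112 within siUpf1. The median was -0.03, and it turned to 0.01 without siCtl replicate 3 and to 0.03 without siUpf1 replicate 2.

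The balance between paralogs shifted in several pairs, as normalised counts per kilobase of a representative transcript show. These pairs were picked after their values were seen, and the ratios are given as a description. Per kilobase, Kdm4a stood 4.07 ± 0.0119 times as high as Kdm4b in siCtl (SD, n = 2) and 1.6 ± 0.117 times in siUpf1 (n = 3). Kdm1b was at 0.0277 ± 0.00093 of the Kdm1a level in siCtl and at 0.0464 ± 0.00225 in siUpf1, so it remained by far the lower of the pair. Smarca2 went from 0.125 ± 0.00247 to 0.167 ± 0.0132 of Smarca4, and Arid1b from 0.102 ± 0.00198 to 0.144 ± 0.00617 of Arid1a. In both BAF pairs the more abundant paralog was not called and the less abundant one rose. Smarcc1 went from 0.944 ± 0.00866 to 0.756 ± 0.0418 of Smarcc2. Chd5 went from 0.0425 ± 0.00374 to 0.0585 ± 0.0015 of Chd4, Kat2b from 0.135 ± 0.00633 to 0.148 ± 0.00576 of Kat2a, and Hdac5 from 10.1 ± 0.341 to 5.47 ± 0.392 times Hdac9. In each of these 8 ratios the siUpf1 libraries lay outside the range of the siCtl libraries. The choice of pairs by their values favours this, so it is no test of a shift. For single protein-coding genes, the groups did not overlap in 73.9%.

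**Figure D3:**
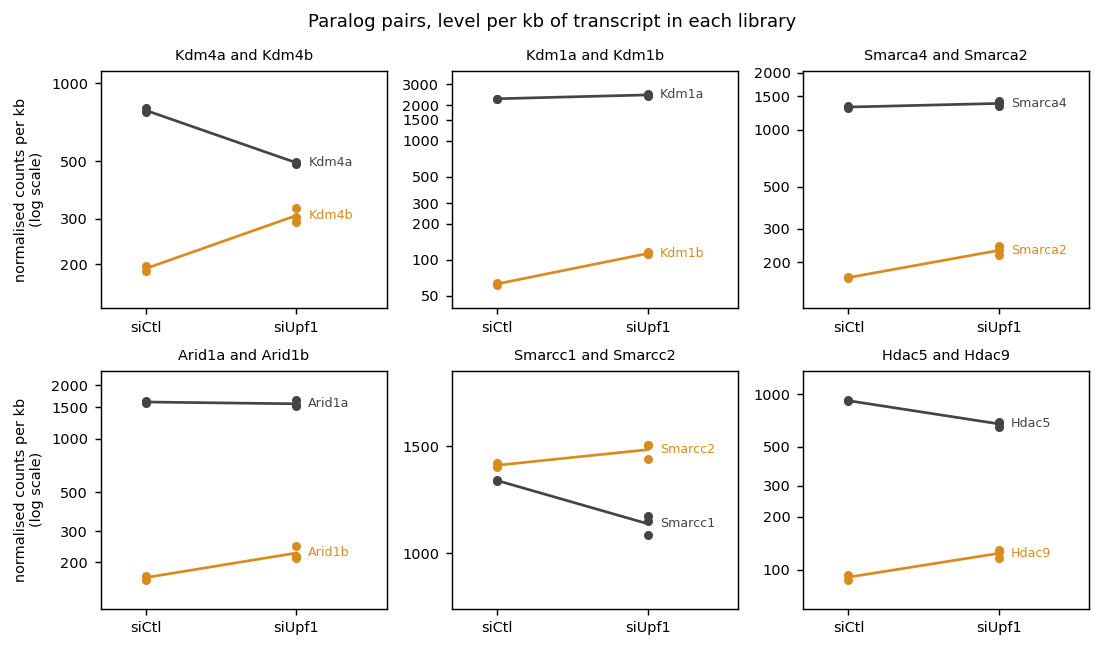
Normalised counts per kilobase of transcript (log scale) for 6 paralog pairs; each point is a library and lines join the group means. Kdm4a and Kdm4b approach each other after Upf1 knockdown, whereas Smarca4 and Arid1a stay level while Smarca2 and Arid1b rise.

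The siUpf1 libraries differed more among themselves than the siCtl libraries did. Between pairs of libraries, chi-square per degree of freedom over genes was 5.65 within siCtl and 8.26, 9.24 and 23.3 within siUpf1. Over the 82 members the median coefficient of variation was 4.62% within siUpf1 (n = 3) and 2.41% within siCtl (n = 2). Part of this difference comes with group size, since a spread from 2 libraries tends to be estimated lower than one from 3. Within siUpf1, 12 members reached 10%. Kmt2d had the clearest gap, with replicate 3 at 20815 against 14702 and 15486. Replicate 3 was the highest siUpf1 library for 40 members, replicate 1 for 24 and replicate 2 for 18. Calls that a single library decides are given with their family above.

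**Figure D4:**
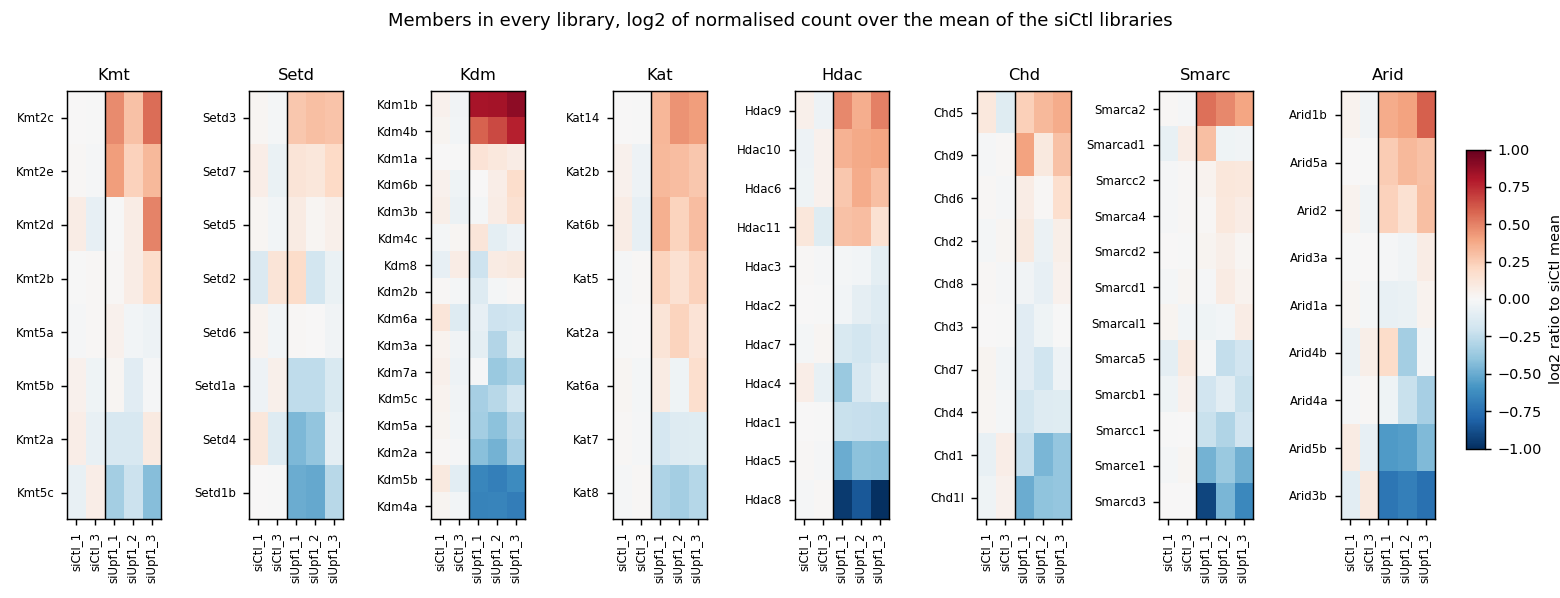
Log2 ratio of each library's normalised count to the mean of the siCtl libraries for the 82 tested members, with 1 panel per family; colours saturate at 1 in either direction. The strongest bands, Kdm1b and Kdm4b in red and Hdac8, Kdm4a, Kdm5b and Arid3b in blue, run across all 3 siUpf1 libraries, whereas the Kmt2d row is red in siUpf1_3 alone.

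The genes that work with these families were examined in 11 lists of 166 genes, of which 160 could be tested, 41 were called higher and 46 lower, where 24.5% of protein-coding genes were called higher and 26.6% lower. The accessory subunits of BAF and PBAF lay mostly on the higher side: 11 of 16 tested were called higher and 2 lower, with a median log2 fold change of 0.34. Ss18, a BAF subunit fused in synovial sarcoma, had 827 and 807 normalised counts in siCtl and 1860, 1983 and 1966 in siUpf1 (1.24, SE 0.073, adjusted p = 7.45e-63). The subunits that enter BAF in postmitotic neurons, Dpf1 (0.53), Dpf3 (0.76), Actl6b (0.59) and Ss18l1 (0.76), all rose, and so did Dpf2 (0.62), which is not restricted to neurons. Bicral (0.76), Brd9 (0.39), Bcl7c (0.30), Bcl7a (0.24) and Bcl7b (0.23) were called higher as well. The rise was therefore not particular to the neuronal subunits. Actl6b had 229 and 246 against 350, 363 and 363. Of the subunits known from neural progenitors, Phf10 fell (-0.25) and Actl6a was not called (-0.13), while Ss18 itself rose. Brd7, a PBAF subunit, had the lowest called value of the list (-0.30, SE 0.055, adjusted p = 4e-07). The neuronal subunits were singled out after their values were seen, and the higher summed neural marker level given above stands beside them.

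Among the partners of the H3K4 methyltransferases, 2 of 11 were higher and 5 lower (median -0.13), beside 24.5% and 26.6% of protein-coding genes. Wdr82, a subunit of the SETD1 complexes, fell by 0.73 on the log2 scale (SE 0.06, adjusted p = 6.87e-33). The shared core subunits Wdr5 (-0.27) and Rbbp5 (-0.26) and the SETD1 subunit Cxxc1 (-0.16) fell as well. Another core subunit, Ash2l, rose (0.34), as did Paxip1, a subunit of the KMT2C and KMT2D complexes (0.66, SE 0.069, adjusted p = 4.42e-20). Other histone methyltransferases had 6 of 15 higher and 4 lower. Smyd5 rose (0.48), whereas both H3K9 enzymes of the SUV39 type fell, Suv39h1 and Suv39h2 each by 0.58.

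Polycomb repressive complex 2 (PRC2) methylates H3K27. It had 6 of 11 tested genes lower and 3 higher (median -0.21), beside 26.6% and 24.5% of protein-coding genes. Its main catalytic subunit Ezh2 fell from 4325 and 4472 normalised counts to 2000, 1863 and 1849 (log2 fold change -1.21, SE 0.058, adjusted p = 1.29e-94). The alternative subunit Ezh1 (-0.39), Eed (-0.24) and Jarid2 (-0.17) fell too, whereas Suz12 was not called (-0.02). The accessory subunits Phf1 (0.55), Mtf2 (0.48) and Aebp2 (0.33) rose. In Polycomb repressive complex 1, which ubiquitinates histone H2A, 5 of 18 were higher and 1 lower (median 0.07), from Rnf2, its catalytic subunit (0.78, SE 0.069, adjusted p = 8.52e-29), to Pcgf6 (-0.26). Pcgf6 was not called without siCtl replicate 1 (adjusted p = 0.109) or siUpf1 replicate 3 (0.0624).

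The remaining lists were mixed or lower, and their counts stand beside 24.5% of protein-coding genes called higher and 26.6% called lower. Of 22 HDAC corepressor partners, 5 were higher and 7 lower, from the NuRD subunit Gatad2a (1.04, SE 0.051, adjusted p = 8.84e-89) to Tbl1x of the NCoR complex (-0.89, SE 0.06, adjusted p = 5.35e-48). Sirtuins, the NAD-dependent deacetylases, had 1 of 7 higher, Sirt3 of mitochondria (1.02), and 3 lower, with Sirt1 lowest (-0.67). Partners of KAT enzymes had 4 of 26 higher and 7 lower, from Ing1 (0.30) to Brpf3 (-0.75). Of 17 other remodelers, DESeq2 called 0 higher and 7 lower, with Ercc6 lowest (-0.77, SE 0.064, adjusted p = 2.21e-32). At an unadjusted p under 0.05, 2 of them were higher, and edgeR called 1 higher. In DNA methylation, 3 of 10 were higher, led by the dioxygenase Tet1 (95.4 and 85.9 against 200, 196 and 218; 1.18, SE 0.2, adjusted p = 1.64e-08). Another 3 were lower, with the de novo methyltransferase Dnmt3b lowest (-0.90). Of 7 other lysine demethylases, Riox2 rose (0.32) and Hr fell (-0.35), and neither was called without siCtl replicate 1 (adjusted p = 0.112 and 0.0796).

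**Figure D5:**
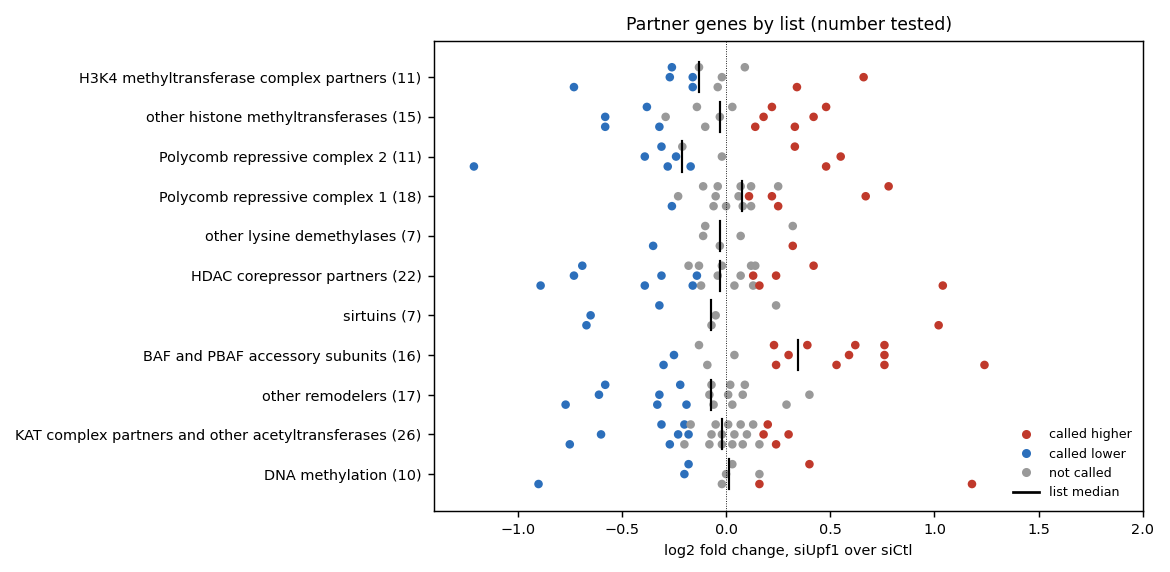
Log2 fold change of siUpf1 over siCtl for the tested genes of 11 partner lists, with 1 point per gene and a black line at each list's median. The BAF and PBAF accessory subunits lie furthest to the right with a median of 0.34, and PRC2 furthest to the left at -0.21.

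The members are long mRNAs with many exons. The median transcript of the tested members was 5270 nt long with 21 exons, against 3004 nt and 9 exons over the protein-coding genes tested. At least 1 isoform annotated as an NMD substrate existed for 35 of 82 members (42.7%) and for 28.5% of the protein-coding genes. With such an isoform, 10 members were higher and 11 lower, and without it 12 were higher and 13 lower. The medians were -0.03 and -0.01, beside -0.04 and -0.02 over all protein-coding genes. Gene-level counts do not separate isoforms, so a change of an NMD isoform alone can be hidden by the main mRNA. Long mRNAs of all kinds leaned upward: of 4242 protein-coding genes with transcripts over 3903 nt, 1463 were higher and 947 lower (median 0.07). The 54 members of that length had 15 higher and 13 lower (median 0.00), and the 10 members up to 2276 nt had 1 higher and 5 lower (median -0.20), where all 4247 short genes had 658 higher and 1305 lower (median -0.10).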

How the data were processed

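The deposited values were raw counts per gene in 5 libraries of poly(A) RNA. Per the labels and the study's methods, the authors trimmed reads with fastp, mapped them with STAR (2.7.0f in the processing notes) to GRCm38.p6 and counted exonic reads by strand with featureCounts (Subread 1.6.4), without normalising or pooling. DESeq2 (1.42.0, R 4.3.3; Wald test, Benjamini-Hochberg adjustment) compared siUpf1 with siCtl over all genes, with edgeR (4.0.16) as an alternative. Scripts were tested on simulated data. With 2 against 3 libraries an exact permutation for 1 gene cannot go below p = 0.1, so the test shares spread across genes.

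Members, lists and 7-mers were chosen with earlier results of these data known. Per-library values are given for up to 3 called members per family and direction with a mean of at least 100, then for other members chosen after their values were seen. Each partner list is named by its largest and smallest called change (mean of at least 100) and others likewise. Groups within families follow biochemistry. Lengths, 3′ UTRs and NMD isoforms came from GENCODE M21, which matched 99.7% of the genes and all 86 members. Libraries of 1 group differed beyond counting noise (chi-square per degree of freedom 5.65 or more). The main fit did not pair samples by replicate number, and whether same-numbered libraries share a batch cannot be told.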

Additional observations from a re-analysis of the deposited data

How the results depend on the processing

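Over the 46 called members and 12 alternatives, 475 of 552 values stayed past the threshold in the same direction, 77 did not pass it and 0 changed direction. edgeR kept all 46 calls and added Kdm7a and Hdac4, and a filter of at least 10 counts in 2 libraries kept 46. TMM scaling lost Kdm1a, no independent filtering Kdm1a and Hdac7, and total-count scaling Kdm3a, Kat7 and Hdac7. Removal of the length and GC trend kept 41, with 10 further calls. The shift of the all-gene median was at most 0.02 with any scaling.

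The members' median of -0.01 became 0.01 with total-count scaling, 0.00 with the replicate block and -0.06 without the length and GC trend, and lay between -0.03 and 0.01 when single libraries were left out. The Setd median became 0.01 with total-count scaling and 0.03 with the block, and lay between -0.07 and 0.03 when single libraries were left out. The Arid median became 0.03 with the block and lay between -0.05 and 0.03 without single libraries. Without the length and GC trend the Kmt median, 0.04, became -0.03. The Smarc median, 0.02, became -0.02 without that trend, 0.00 when siCtl replicate 3 was left out and -0.01 when siUpf1 replicate 1 was. These medians sit within a few hundredths of 0, and the cause was not tested.

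When single libraries were left out, genes called higher were between 2393 and 2944, genes called lower between 2374 and 3115, members higher between 13 and 19 and members lower between 16 and 24. Fewer samples were then fitted, and a lone siCtl library was assumed to vary like the siUpf1 group. Same-numbered libraries did not deviate together (correlations -0.0861 for number 1 and -0.0748 for number 3 over 11898 genes). With 2 siCtl libraries, whose deviations from their mean mirror each other, these are not separate checks. Since siUpf1 replicate 2 also has no siCtl counterpart, they cannot exclude a shared batch. With the replicate block, 1957 genes were called higher and 1962 lower, and 12 members higher and 14 lower. This setting lost the most member calls and kept 26 of 46. Those lost were Setd1a, Setd7, Kdm1a, Kdm3a, Kat2a, Kat2b, Kat5, Kat7, Kat8, Hdac1, Hdac6, Hdac7, Hdac10, Hdac11, Chd4, Chd5, Smarcb1, Smarcc1, Smarcd3 and Arid5a. With 2 siCtl libraries the smallest changes are at the limit of what could be called.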
